A study of Mus musculus with 2 samples.

Results

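The genes described here are 10 markers of preadipocytes and mesenchymal progenitor cells, namely Pdgfra, Pdgfrb, Dlk1, Cd34, Ly6a, Dpp4, Pi16, Thy1, Zfp423 and Cd24a, taken by symbol from a table of 46095 genes in which all 10 have a row. They were read in C3H10 cells, a mouse line of embryonic mesenchyme that turns into fat cells after hormonal induction. The labels describe the cells as a C57BL/6 fibroblast precursor able to become fat. That strain differs from the C3H in the line's name, and the strain was not checked here. RNA of cells under 2 conditions was sequenced on day 6 of differentiation. Cells of 1 condition (NC) had received a negative control antisense oligonucleotide (ASO). Those of the other (MALAT1 knockdown) had received an ASO against MALAT1, a long nuclear noncoding RNA. Cells of both conditions were transfected at 100 nM before induction with isobutyl-1-methylxanthine, dexamethasone, troglitazone and insulin, and were then kept in insulin. Each condition is 1 library of transiently transfected cells. Whether a library came from 1 culture or from several pooled is not given in the sources used here. Which of the ASOs against MALAT1 was used for sequencing is not named in them either.

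Adipocytes arise from fibroblast-like stromal cells that carry receptors for platelet-derived growth factor (PDGF) and surface glycoproteins such as Sca-1, THY1 and CD34. Early progenitors are known by DPP4 and PI16, committed preadipocytes by ZFP423 and, in many lines, by DLK1 (Pref-1), and many of these markers are known to decline as lipid-laden cells mature. A comparison of MALAT1-knockdown with control cells therefore asks whether the levels of these genes differed after cells of both conditions had been induced to form fat. There is no library from before induction, so a decline of these markers during differentiation was not measured here.

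The NC library held 58147539 counts and the MALAT1-knockdown library 61653549 counts, and the 17356 genes whose counts summed to at least 10 were compared. Levels are CPM (a gene's counts as a share of the library, per 1e6) after scaling with edgeR's TMM factors, and the log2 fold change is the knockdown level over the NC level with a prior count of 0.5. Malat1 itself had 170402 counts in NC and 45396 counts in the knockdown, which left 24.7% of the control level. With 1 library per condition no difference has a replicate check. The 95% intervals are exact binomial (Clopper-Pearson) limits that cover counting error only, reads copied from 1 molecule make them too narrow, and a difference between these libraries is not shown to be one between the conditions.

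Of the 10 markers, 8 passed the filter on counts, and 6 of these were higher and 2 lower in the MALAT1-knockdown library. Among all genes compared 49.6% were higher and 50.4% were lower. The 95% interval lay wholly above 0 for the 6 higher markers (26.7% of all genes) and wholly below 0 for the 2 lower ones (26.4% of all genes). Only Cd34 differed by at least 2-fold, upward, against 3.83% of all genes that were at least 2-fold higher, and 0 markers were at least 2-fold lower, against 6.02% of all genes. The median log2 fold change of the 8 was 0.30, compared with -0.0031 over all genes, whose interquartile range ran from -0.23 to 0.18. Dlk1 and Dpp4 did not pass the filter. Adipocyte genes moved in the opposite direction in the same libraries. All 11 mature adipocyte markers compared were lower in the knockdown, with a median log2 fold change of -1.30, and 9 were at least 2-fold lower. In bulk RNA, fewer cells of a type and less RNA per cell cannot be told apart, and the part that a changed share of adipocytes has in the values of the progenitor markers was not tested.

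**Figure D1:**
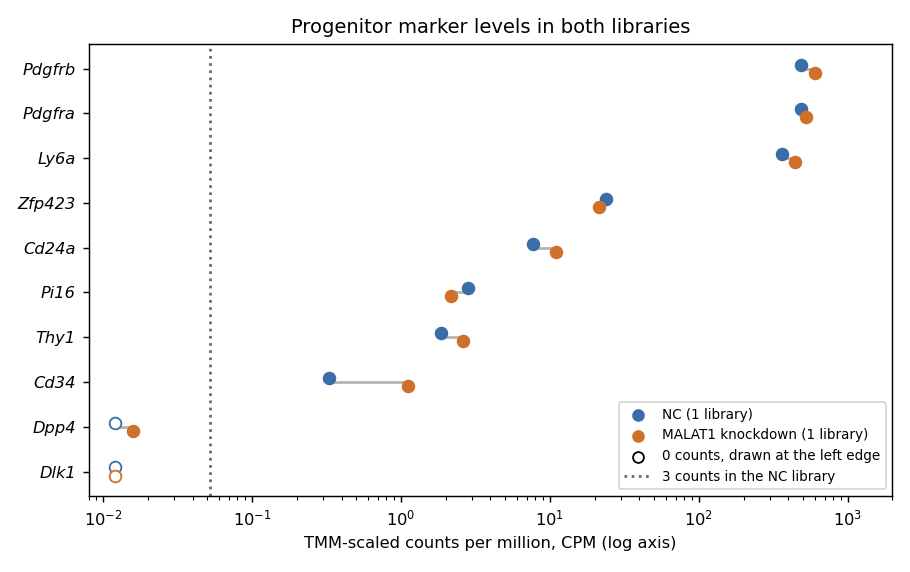
TMM-scaled CPM of the 10 markers (log axis) in the NC library (blue) and the MALAT1-knockdown library (orange), 1 library each, with open circles for 0 counts. Pdgfrb, Pdgfra and Ly6a sit between 363 and 608 CPM, and Dlk1 and Dpp4 sit below the dotted line of 3 counts.

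The markers ran from 0 counts to 608 CPM. Pdgfra, Pdgfrb and Ly6a together took 97.3% of the counts on the 10 markers in NC and 97.6% in the knockdown. Summed over the 10, the level was 1375 CPM in NC and 1615 CPM in the knockdown library. Divided by the length of the longest coding transcript in GENCODE M21, Ly6a had the highest level, with 380 CPM per kilobase in NC and 462 in the knockdown. Pdgfrb followed with 90.03 and 112 CPM per kilobase, and Pdgfra with 71.3 and 77.1. Zfp423 and Cd24a came next. In NC their separate intervals overlapped, and the difference between them was not tested. Their levels there were 4.83 CPM per kilobase for Zfp423 (95% Poisson interval 4.58 to 5.09) and 4.28 for Cd24a (3.89 to 4.69). In the knockdown Cd24a stood above Zfp423, at 6.05 (5.60 to 6.52) against 4.35 (4.12 to 4.59). This order depends on the lengths used, 4907 bases for Zfp423 and 1816 for Cd24a. Without that division Zfp423 was the higher in both libraries, at 21.4 against 10.98 CPM in the knockdown. The intervals do not cover which transcripts were expressed, and this was not tested. Thy1, at 1.08 and 1.51 CPM per kilobase, was above Pi16, at 0.707 and 0.544. Without the division by length Pi16 was the higher in NC, at 2.83 against 1.87 CPM. Cd34, at 0.129 in NC, was the lowest of the 8, while its 0.435 in the knockdown (0.338 to 0.550) overlapped the interval of Pi16 (0.456 to 0.644).

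The PDGF receptors are paired tyrosine kinases that mark stromal progenitors, PDGFRα on most adipocyte precursors and PDGFRβ also on mural cells around vessels. Pdgfra, at 75152292 to 75198215 of chromosome 5 (plus strand, GRCm38), had 28120 counts in NC and 32730 in the knockdown, or 487 and 527 CPM. Its log2 fold change was 0.11 (95% interval 0.09 to 0.14), inside the interquartile range of all genes. Pdgfrb, at 61045150 to 61085061 of chromosome 18 (plus strand), had 28172 and 37790 counts, or 488 and 608 CPM. Its log2 fold change was 0.32 (0.29 to 0.34), and the interval did not overlap that of Pdgfra. The ratio of Pdgfrb to Pdgfra counts, which is not corrected for transcript length, was 1.002 in NC and 1.15 in the knockdown library. At these counts the intervals are so narrow that they separate many genes from 0. Of the 1183 genes with a mean of at least 10000 counts, 50% had an interval wholly above 0.

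The PDGF ligands and related secreted proteins were also mostly higher. Of 6 genes compared, 5 were higher and 1 lower, none by 2-fold, with a median log2 fold change of 0.22. Among all genes compared 49.6% were higher. The 95% interval lay wholly above 0 for 4 of the 6, against 26.7% of all genes. Pdgfa, which binds the α receptor, had 643 counts in NC and 787 in the knockdown (log2 fold change 0.18). Pdgfc, another ligand of the α receptor, was the lower one, with 384 and 375 counts (-0.14, 95% interval -0.35 to 0.07). Pdgfrl, a receptor-like gene, had 1066 and 1531 counts (0.42), and Sparc, a matrix protein that binds PDGF, had 87414 and 103616 counts (0.14). Pdgfb and Pdgfd complete the ligands and were added after their values were seen. Pdgfb had 85 and 109 counts (0.25, 95% interval -0.17 to 0.68) and Pdgfd had 77 and 116 (0.48, 0.06 to 0.92). The 12 genes of the signal relay behind the receptors divided evenly, with 6 higher and 6 lower, 0 past 2-fold and a median of -0.01. Pik3r1, a regulatory subunit of phosphoinositide 3-kinase, had 54817 and 52981 counts (-0.16), and the adaptors Shc1 (-0.08) and Crk (0.09) and the phosphatase Ptpn11 (-0.07) differed by less.

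**Figure D2:**
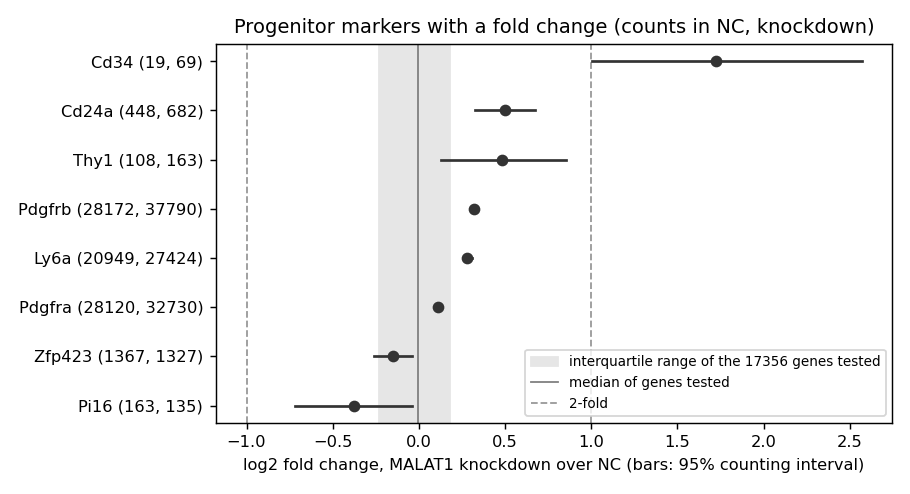
Log2 fold change (MALAT1 knockdown over NC) of the 8 markers with at least 10 summed counts, with 95% counting intervals as bars and the counts of both libraries beside each name. Cd34 alone lies past the dashed 2-fold line, Pdgfra and Zfp423 lie inside the grey interquartile range of all genes, and Pi16 and Zfp423 lie below 0.

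Ly6a, Thy1 and Cd24a encode glycoproteins that are fixed to the outer membrane by a glycosylphosphatidylinositol (GPI) anchor, and all 3 were higher in the MALAT1-knockdown library. Ly6a (Sca-1), at 74994877 to 74998031 of chromosome 15 (minus strand), had 20949 counts in NC and 27424 in the knockdown, or 363 and 441 CPM. The log2 fold change was 0.28 (0.26 to 0.31). Thy1 (CD90), a surface marker of fibroblasts and mesenchymal stromal cells at 44043384 to 44048579 of chromosome 9 (plus strand), had only 108 and 163 counts, or 1.87 and 2.62 CPM. Its log2 fold change was 0.49 with a wide interval from 0.13 to 0.85. Cd24a, a mucin-like protein found on some adipocyte progenitors and on blood cells, is at 43578284 to 43584265 of chromosome 10 (plus strand). It had 448 and 682 counts, or 7.76 and 10.98 CPM, with a log2 fold change of 0.50 (0.33 to 0.67). These differences correspond to 21.6% more for Ly6a, 40.0% more for Thy1 and 41.3% more for Cd24a, and each was under the 2-fold line.

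Reads of Ly6a could be shared with close relatives, because how reads that match several places were counted is not given in the sources used here. The first 120 coding bases of Ly6a and of its neighbour Ly6c1 (GENCODE M21, GRCm38) are shown to let the similarity be seen, with the 8 positions that differ in capitals.
Ly6a: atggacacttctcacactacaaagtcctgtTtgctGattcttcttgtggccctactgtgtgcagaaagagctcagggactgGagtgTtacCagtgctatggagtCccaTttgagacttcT
Ly6c1: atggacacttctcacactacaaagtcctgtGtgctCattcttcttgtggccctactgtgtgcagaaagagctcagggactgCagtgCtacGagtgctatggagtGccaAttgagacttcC
Over the whole coding sequence Ly6a was 83.8% identical to Ly6c1 and 86.4% identical to Ly6i, with which it shared an unbroken run of 80 bases, while Ly6e was 57.4% identical. The relatives lay on both sides of 0. Ly6c1 had 8665 counts in NC and 9639 in the knockdown (log2 fold change 0.05), and Ly6e had 259 and 469 (0.75). Ly6c2 was lower, with 260 and 55 counts (-2.34, 95% interval -2.79 to -1.92). Ly6h had 48 and 29 counts (-0.82), Ly6f 22 and 8 (-1.51) and Ly6i 6 and 17 (1.32, 95% interval -0.01 to 3.03). Of the 7 family members compared, Ly6a included, 4 were higher and 3 lower, with 1 at least 2-fold higher and 2 at least 2-fold lower, and the median was 0.05. With genes of at least 1 summed count the family's median was -0.39. The Ly6a value is thus uncertain by whatever reads were exchanged with its relatives. Of these only Ly6c1 had counts of the same order. The counts of the relatives depend on the same unknown handling of reads, and the exchange was not tested. Copies were also sought among annotated transcripts at a cut-off of at least 90% identity over at least 150 bases. Ly6a matched a Ly6c1 transcript (92.15% over 191 bases) and a Ly6c2 transcript (90.06% over 171 bases). Cd24a matched 2 processed pseudogenes, Gm6212 and Gm15352, and each had 0 counts in both libraries.

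Cd34 encodes a sialomucin of progenitor and endothelial surfaces, and it showed the largest difference of the 8 markers. Its gene spans bases 194938819 to 194961279 of chromosome 1 (plus strand). It had 19 counts in NC and 69 in the knockdown, or 0.329 and 1.11 CPM, a log2 fold change of 1.73 with a 95% interval from 1.0045 to 2.57. This is 3.31-fold higher on few counts, and the lower limit lies at the 2-fold line. Among the 2146 genes with a mean of 25 to 100 counts, as Cd34 had, 5.36% were at least 2-fold higher. Cd34 overlaps the antisense gene Gm16897, which had 13 and 10 counts, and as no source used here says that strand was used in counting, reads from both cannot be told apart. The exact binomial test, which allows for no spread between cultures, also called Cd34 higher, and the test called 2.45% of all genes compared at least 2-fold higher. If the cultures are assumed to vary with a biological coefficient of variation of 0.1, edgeR's exact test with Benjamini-Hochberg adjustment gave Cd34 an adjusted p = 0.00118 and called 1.16% of all genes compared at least 2-fold higher. With an assumed 0.2 it called 0.127% of all genes compared and with 0.4 it called 0.00576%, and Cd34 was not among these, with an adjusted p = 0.124 at 0.2. The spread between cultures was not measured here.

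Cd34, Ly6a and Thy1 are also known from blood vessels and blood cells, so markers of these cells were read beside them. Of 9 endothelial markers, Tie1 and Cldn5 had 0 counts in both libraries, and Cdh5 and Kdr had 0 counts in NC and 1 in the knockdown. The summed level of the 9 was 1.42 CPM in NC and 1.95 CPM in the knockdown. Emcn, with 20 and 45 counts (log2 fold change 1.04), and Vwf, with 12 and 30 (1.18), were both at least 2-fold higher, while Pecam1, with 26 and 25 counts, and Tek, with 23 and 19, were not. Of 8 blood cell markers, Ptprc, Adgre1, Itgam, Cd3e and Kit had 0 counts in both libraries, and the sum was 3.03 and 2.14 CPM. Cd68, which is not confined to macrophages, made up most of it with 172 and 119 counts (-0.64), and Csf1r had 3 and 13 (1.84, 95% interval 0.15 to 4.46). The part of such cells in the Cd34 value was not tested.

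Dpp4 and Pi16 name the early, interstitial class of adipose progenitor, and here neither was abundant. Dpp4, a membrane peptidase at 62330073 to 62412231 of chromosome 2 (minus strand), had 0 counts in NC and 1 count in the knockdown. Both are within the 3 counts that a count of 0 allows, which is 0.0520 CPM in NC and 0.0483 CPM in the knockdown, so no fold is given. Pi16, a secreted peptidase inhibitor of fibroblasts at 29317680 to 29330593 of chromosome 17 (plus strand), had 163 and 135 counts, or 2.83 and 2.17 CPM. It was one of the 2 lower markers, with a log2 fold change of -0.38 and an interval from -0.72 to -0.04 that nearly reached 0. An exact binomial test of the counts, which compares these libraries and not the conditions, gave Pi16 a Benjamini-Hochberg adjusted p = 0.0555.

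Genes of the interstitial class lay on both sides of 0. Of 12 genes in that list, Pi16 and Dpp4 included, 9 were compared, 6 were higher and 3 lower, and the median log2 fold change was 0.17. Anxa3, a calcium-dependent membrane-binding protein, had 2353 counts in NC and 3871 in the knockdown (0.61), and Emilin2, an elastic fibre protein, had 10166 and 14156 (0.37). Sema3c, a secreted guidance factor, had 508 and 501 counts (-0.13, 95% interval -0.31 to 0.05). Dact2, an intracellular modulator of Wnt and TGF-β signals, was the only one past 2-fold, with 11 and 25 counts (1.04, 95% interval 0.00 to 2.25). Wnt2, with 0 and 1 counts, and Bmp7, with 0 in both, were not detected above the floor. Genes of the committed and CD142-positive stromal classes had a lower median, -0.15 over 7 genes, with 3 higher, 4 lower and 0 past 2-fold. F3, which encodes CD142 (tissue factor), had 13330 and 12906 counts (-0.15), and the adhesion molecule Vcam1 had 8557 and 9267 (0.01). The sterol transporter Abcg1 (-0.55) and the peptidase Ggt5 (-0.85) were lower.

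Dlk1, whose shed protein Pref-1 holds preadipocytes undifferentiated, had 0 counts in both libraries. Its gene is at 109452823 to 109463336 of chromosome 12 (plus strand), and 0 counts allow up to 0.0520 CPM in NC and 0.0483 CPM in the knockdown. Of its imprinted neighbours, Rtl1 and Dio3 also had 0 counts in both libraries. The noncoding RNAs Meg3, Rian and Mirg of the same cluster were detected, with 475 and 571 counts (log2 fold change 0.16), 545 and 510 (-0.20), and 348 and 301 (-0.32). Begain, a flanking gene, had 55 and 38 counts (-0.63). The coding genes Dlk1, Rtl1 and Dio3 were therefore not detected at this depth in a cluster whose noncoding RNAs were read, with 3 of the 4 genes compared lower, 0 past 2-fold and a median of -0.26.

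Most genes for proteins that shed or receive Notch-type signals were read. Of 14 genes compared in a list of sheddases, Notch receptors, ligands and targets, 7 were higher and 7 lower, with a median of 0.02. Adam10, a sheddase of Notch and many other surface proteins, had 9624 and 13245 counts (0.35). Adam17, known as the sheddase of DLK1, was lower, with 8077 and 7814 counts (-0.15, 95% interval -0.20 to -0.11), and was named after its value was seen. Notch4 had 0 counts in both libraries. Notch1 had 11291 and 13452 (0.15) and Notch2 had 10143 and 10860 (-0.01). Sox9, a transcription factor that DLK1 is known to maintain in preadipocytes, had 6570 and 10050 counts (0.51, 95% interval 0.46 to 0.55). Dlk2, the close relative of Dlk1, had 8 and 31 counts (1.78, 95% interval 0.69 to 3.18), and the Notch ligand Dll4 had 7 and 3 (-1.21, -3.91 to 0.80).

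Zfp423, a zinc-finger transcription factor that commits stromal cells to the adipocyte lineage, was the other lower marker. The gene, at 87661810 to 87959595 of chromosome 8 (minus strand), had 1367 counts in NC and 1327 in the knockdown, or 23.7 and 21.4 CPM. The log2 fold change was -0.15 (95% interval -0.26 to -0.04), and it lay inside the interquartile range of all genes. Of 15 preadipocyte transcription factors compared, Zfp423 and Sox9 included, 8 were higher and 7 lower, with a median of 0.09. Prrx1, a homeobox factor of limb and stromal mesenchyme, had the most counts, 40084 and 51824 (0.26). Ebf1, a factor of early adipogenesis, had 7801 and 7884 counts (-0.09), and Tcf7l1, a nuclear effector of Wnt, had 6828 and 7291 (-0.01). Ebf2 had 8 and 3 counts (-1.39, 95% interval -4.07 to 0.54), and Tcf21 had 0 in both. Named after their values were seen, Gata2 had 659 and 1108 counts (0.64) and Gata3 had 124 and 211 (0.66). Foxo1, named in the same way, was lower, with 3414 and 2660 counts (-0.47).

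**Figure D3:**
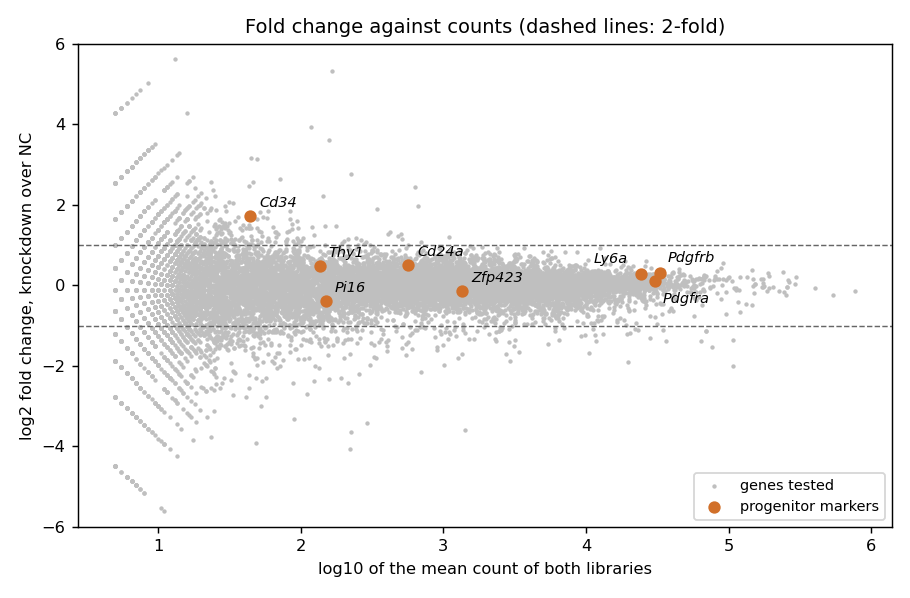
Log2 fold change (MALAT1 knockdown over NC) of the 17356 genes compared against the log10 of their mean count, with the 8 markers that passed the filter in orange and 2-fold as dashed lines. Cd34 lies among genes with few counts, where the grey points spread widest, and Pdgfra, Pdgfrb and Ly6a lie among the genes with the most counts within a narrow band around 0.

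Promoter sequence was set beside the level for 3 markers that stand at different levels, namely Pdgfra with many counts, Cd34 with few and Dlk1 with 0. The 250 bases before the RefSeq start (GRCm38.p6) are given in the direction of the gene, and 6 of the 10 markers matched the RefSeq promoter table.
Pdgfra, chr5:75152001-75152250, plus strand: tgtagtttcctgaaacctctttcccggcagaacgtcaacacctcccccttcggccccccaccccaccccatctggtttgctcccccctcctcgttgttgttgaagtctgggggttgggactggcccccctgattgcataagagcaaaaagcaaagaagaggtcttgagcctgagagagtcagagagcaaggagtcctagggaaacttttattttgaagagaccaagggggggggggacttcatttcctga
Cd34, chr1:194938571-194938820, plus strand: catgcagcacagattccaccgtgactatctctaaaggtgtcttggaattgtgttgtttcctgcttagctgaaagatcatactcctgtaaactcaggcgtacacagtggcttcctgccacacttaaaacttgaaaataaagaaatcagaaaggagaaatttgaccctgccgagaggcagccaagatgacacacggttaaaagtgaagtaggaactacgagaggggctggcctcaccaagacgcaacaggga
Dlk1, chr12:109452573-109452822, plus strand: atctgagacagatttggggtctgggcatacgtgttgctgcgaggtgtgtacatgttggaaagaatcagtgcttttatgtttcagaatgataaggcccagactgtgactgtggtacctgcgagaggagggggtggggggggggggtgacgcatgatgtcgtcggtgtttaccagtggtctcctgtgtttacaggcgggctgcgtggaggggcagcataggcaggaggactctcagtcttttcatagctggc
The windows were searched on both strands for a TATA box core spelled TATAAA, for the CCAAT box and for a GC box spelled GGGCGG. A match would stand in capitals, and none of these 3 windows held one. Of 32851 promoter windows of the same length, 12.4% held the TATA box core, 33.8% the CCAAT box and 32.7% the GC box. The number of CG dinucleotides was 4 for Pdgfra, 6 for Cd34 and 8 for Dlk1, against a median of 6 over all windows. Dpp4, at or near 0 counts, had 4 CG dinucleotides and Pi16 had 2, while the windows of the annotated starts of Zfp423 had 18 and 6. Among these, 1 TATA box core was found for Dpp4, 1 CCAAT box for Pi16, and 2 GC boxes in the first and 1 in the second window of Zfp423.

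The wider stromal background was read in the same way. Of 16 mesenchymal stromal surface genes compared, Thy1 included, 13 were higher and 3 lower, with a median log2 fold change of 0.13. Cxcl12, a stromal chemokine, had 145416 and 159867 counts (0.03), the integrin Itgb1 had 44224 and 50848 (0.09), and the tetraspanins Cd63 and Cd81 had 35137 and 41241 (0.12) and 27106 and 28900 (-0.01). Against this direction, Mcam (CD146), an adhesion molecule of perivascular cells, had 3233 and 1385 counts (-1.33, 95% interval -1.42 to -1.24). Nes, an intermediate filament gene, had 3 and 24 counts (2.70, 95% interval 1.17 to 5.27). Of 12 fibroblast matrix and cytoskeletal genes, 8 were higher and 4 lower, 0 past 2-fold, with a median of 0.11. Among them Vim had 170088 and 214239 counts (0.23), Col1a2 had 264064 and 328873 (0.21), Fn1 had 279976 and 307255 (0.03) and Col6a1 had 248430 and 260479 (-0.04). The lowest were the proteoglycan genes Dcn, with 2247 and 1315 counts (-0.88), and Lum, with 1246 and 674 (-0.99, 95% interval -1.13 to -0.86), both named after their values were seen. Genes of dividing cells moved with the higher markers, and their part in these values was not tested. All 8 were higher, with a summed level of 775 CPM in NC and 1159 CPM in the knockdown and a median of 0.68, among them Mki67 (0.68), Top2a (0.46), Pcna (0.50) and Cdk1 (0.63). The mature adipocyte markers had a summed level of 6068 CPM in NC and 2395 CPM in the knockdown. Those with the most counts were Fabp4 (-1.37), Lpl (-1.37), Adipoq (-1.30) and Gpd1 (-1.91), and the 11 ranged from -1.99 to -0.57. The 9 past 2-fold ranged from -1.99 to -1.21.

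**Figure D4:**
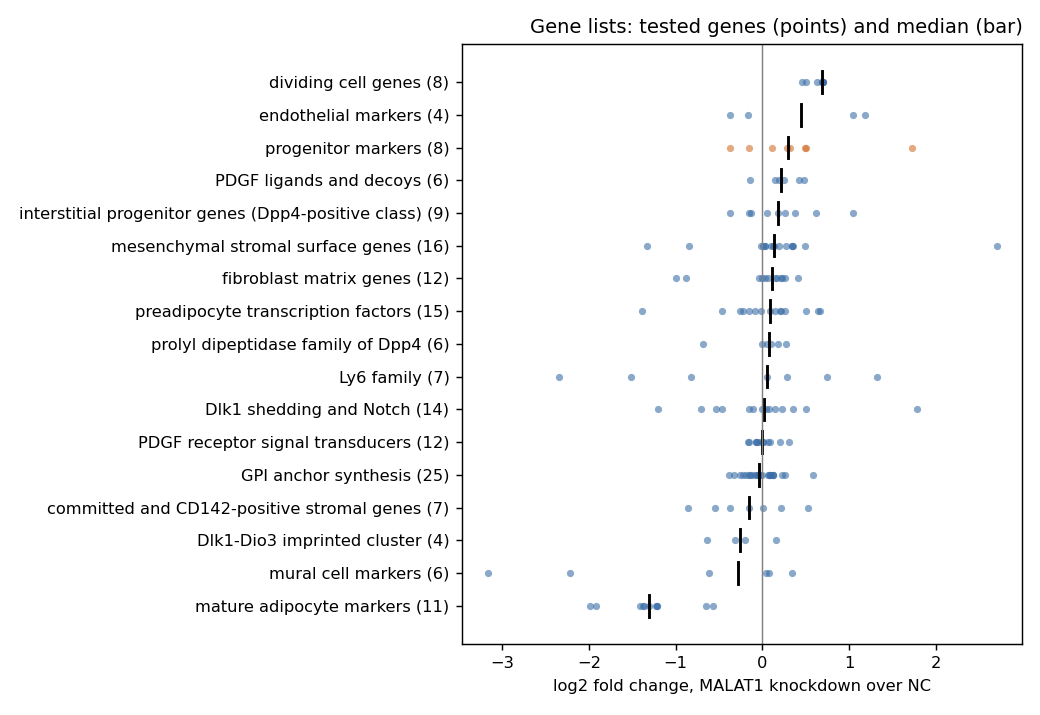
Log2 fold change (MALAT1 knockdown over NC) of the genes compared in each list (points, number in parentheses), with the median as a black bar and the progenitor markers in orange, for the lists with at least 3 genes compared. The progenitor markers have a median of 0.30, with the endothelial markers next above at 0.44 and the PDGF ligands and decoys next below at 0.22. The dividing cell genes are highest at 0.68, and the mature adipocyte markers lie apart at -1.30.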

How the data were processed

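RNA of 1 NC and 1 MALAT1-knockdown library was made from total RNA after rRNA depletion with a directional kit. The authors deposited 1 table of whole-number read counts per gene symbol, without normalization. The submitters' processing notes name HISAT2 and GRCm38. The counting tool, annotation, strand setting and treatment of multiply matching reads are not given in the sources used here. No column was left unused.

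The markers and the 18 other gene lists were chosen with earlier results of these data known. Lists were written by hand. Scaling used TMM (edgeR 4.0.16, R 4.3.3), with factors of 0.992 for NC and 1.01 for the knockdown. Genes with at least 10 summed counts were compared, and a gene with at most 3 counts in both libraries was given no fold. As edgeR's quasi-likelihood test needs replicates, genes were called by a 2-fold difference and described with Clopper-Pearson and Poisson intervals (scipy 1.17.1). The calculation was tested on simulated counts with Poisson error only, which cannot show how it behaves with spread between cultures. Alternatives were library totals, DESeq2 size factors (DESeq2 1.42.0), upper-quartile factors, filters of 1 summed count or of 10 counts in each library, prior counts of 2 and 0.125, a 1.5-fold line, an exact binomial test, and edgeR's exact test with a preset coefficient of variation of 0.1, 0.2 or 0.4. Genes were named by rule: all 10 markers, the 4 genes of each list with the most counts, and listed genes past 2-fold. Some at or near 0 counts were added, as were those marked as named or added after their values were seen. For the 9 adipocyte markers past 2-fold a range is given. Positions, lengths and coding sequences came from GENCODE M21, promoters from RefSeq, and near-identical copies from BLAST 2.17.0.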

Additional observations from a re-analysis of the deposited data

How the results depend on the processing

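No paired analysis was possible because each condition is 1 library. The counts of markers that were higher, lower and past 2-fold and their median held under every scaling, filter and prior count tried, as did each marker's own log2 fold change within its counting interval. Library totals moved the median of all genes from -0.0031 to 0.019, the largest shift of any setting. Cd34 was past the call in the exact binomial test and in edgeR's exact test with a preset coefficient of 0.1, but the number of markers at least 2-fold higher was 0 with a preset of 0.2 or 0.4, where 22 and 1 of all genes were still called higher. Here the assumed spread sets the call. For the other lists, library totals gave the fibroblast matrix genes a median of 0.13. With at least 1 summed count, 2 mesenchymal stromal surface genes were at least 2-fold higher. With at least 10 counts in each library, which leaves fewer genes, 0 were at least 2-fold higher among the mesenchymal stromal surface genes, the Dlk1 and Notch list, the Ly6 family and the blood cell markers. The number at least 2-fold lower was then 0 for the Dlk1 and Notch list, the preadipocyte transcription factors and the mural cell markers and 1 for the Ly6 family, and the mural median was 0.0599. With a prior count of 2, which shrinks folds on few counts, 0 interstitial genes and 1 endothelial marker were at least 2-fold higher, and 0 genes of the Dlk1 and Notch list were at least 2-fold lower. Within the width of the counting intervals, but with the sign turned, the Ly6 median was -0.39 with at least 1 summed count, where 3 members were at least 2-fold lower, the blood cell median went from 0.60 to -0.64 with at least 10 counts in each library, where fewer genes are left, and the median of the PDGF receptor relay was 0.01 with library totals. With 10 counts in each library the committed and CD142-positive genes had a median of -0.26. Depth limits Dlk1, Dpp4 and Cd34.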

Other observations

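Other families to which the markers belong gave the following values. GPI anchor synthesis, on which the surface forms of Ly6a, Thy1 and Cd24a depend, was read through 25 genes, of which 10 were higher and 15 lower in the MALAT1-knockdown library. None of the 25 differed by 2-fold, and the median log2 fold change was -0.04. Those with the most counts were Pigt, with 6385 counts in NC and 7456 in the knockdown (0.12), Pigs (0.08), Pign (0.06) and Pigq (-0.07), of which Pigt and Pigs belong to the transamidase that attaches the anchor. In a list of prolyl and dipeptidyl peptidases written around Dpp4, 6 genes were compared, 4 higher and 2 lower, with a median of 0.08 and 0 past 2-fold. The cytosolic relatives of Dpp4 in it, Dpp8 with 6776 and 7544 counts (0.05), Dpp9 with 5968 and 6902 (0.10) and Prep with 4640 and 5678 (0.18), and the metallopeptidase Dpp3, which is not of the same family, with 6917 and 7422 (-0.0049), were all read far above the single count of Dpp4.

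Mural cells carry Pdgfrb, so 7 of their markers were read beside it. Of 6 compared, 3 were higher and 3 lower, with a median of -0.29 that turned to 0.0599 when at least 10 counts were required in each library, where 0 were at least 2-fold lower. The summed level was 389 CPM in NC and 408 CPM in the knockdown. Cspg4 (NG2) had 13363 and 14854 counts (0.05), Notch3 had 6994 and 7941 (0.08), Anpep had 1637 and 2224 (0.34) and Des had 448 and 314 (-0.62). The channel genes Kcnj8, with 19 and 4 counts (-2.22, 95% interval -4.37 to -0.77), and Abcc9, with 12 and 1 (-3.17, -9.11 to -0.93), were at least 2-fold lower on few counts, and Rgs5, a defining pericyte marker, had 0 and 1 counts. Of 4 epithelial markers, only Cdh1 passed the filter, with 48 and 61 counts (0.24, 95% interval -0.33 to 0.82).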
